A study of Homo sapiens with 6 samples.

Results

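Transcripts of the JAK2-STAT5 pathway and of the genes that this pathway is known to switch on were compared between OCI-AML5 cells exposed to S767 and cells exposed to the solvent DMSO. The set holds 10 genes named by symbol, namely *JAK2*, *STAT5A*, *STAT5B*, *CISH*, *SOCS1*, *SOCS2*, *SOCS3*, *PIM1*, *PIM2* and *OSM*. All 10 were found among the 60609 genes of the deposited tables, and all 10 were among the 20725 genes with enough counts to be tested. The OCI-AML5 line, established from a human acute myeloid leukemia, served for all libraries, and S767 is a small molecule that the study examined for its activity against leukemia cells. The DMSO group and the S767 group (1 μM, 24 hours) each held 3 libraries of poly(A)-selected RNA, numbered 1 to 3 in the labels. Cells of both groups grew in aMEM with 10% heat-inactivated FBS and 10 ng/mL GM-CSF, so every library came from cells under continuous cytokine stimulation of a single cell line.

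GM-CSF binds a receptor whose common beta chain carries the kinase JAK2. The activated kinase phosphorylates the transcription factors STAT5A and STAT5B, which pair up, enter the nucleus and bind a palindromic DNA element. Among the genes that STAT5 is known to drive in blood cells, *CISH* and the *SOCS* genes encode proteins that bind the receptor or JAK2 and dampen the signal. *PIM1* and *PIM2* encode serine/threonine kinases that favor survival and growth, and *OSM* encodes the secreted cytokine oncostatin M.

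The STAT5 element was sought as TTCNNNGAA, which is its own reverse complement, in the 250 bases before each annotated start in RefSeq (GRCh38.p14). Entries existed for 8 of the 10 genes, all but *SOCS2* and *OSM*, and gave 14 windows. Of these, 1 window held the element, that of *CISH*, with 4 copies starting 241, 230, 129 and 112 bases before the start. Among 35116 windows of all genes, 6.57% held at least 1 copy and 0.0142%, or 5 windows, held 4. The stretches of the *CISH* window with the copies are shown because they are the sequence that sets *CISH* apart among the 8 genes with an entry, with the element in capitals, 5′ to 3′ on the minus strand of GRCh38.p14. Annotated exons of *CISH* and of the opposite-strand gene *MAPKAPK3* overlap the window. Both stretches lie upstream of the annotated span of *CISH*, which ends at 50611831. The second lies outside annotated exons, and whether the first falls in an exon of *MAPKAPK3* was not examined. The window of *PIM1* on the plus strand, which has no copy, is given beside them because *PIM1* had the highest level of the 10 genes. In replicate 2 it lay above the other libraries, where *CISH* lay below. *SOCS1* and *SOCS3*, whose windows also have no copy, lay below in replicate 2 as *CISH* did. Whether the copies bear on these courses was not tested. A match of letters is a description of the sequence and not a measured binding site.
*CISH* chr3:50611992-50612019: cgttTTCCTGGAAagTTCTTGGAAatct
*CISH* chr3:50611832-50611907: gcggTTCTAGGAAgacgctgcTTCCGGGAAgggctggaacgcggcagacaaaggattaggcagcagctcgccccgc
*PIM1* chr6:37169902-37170151: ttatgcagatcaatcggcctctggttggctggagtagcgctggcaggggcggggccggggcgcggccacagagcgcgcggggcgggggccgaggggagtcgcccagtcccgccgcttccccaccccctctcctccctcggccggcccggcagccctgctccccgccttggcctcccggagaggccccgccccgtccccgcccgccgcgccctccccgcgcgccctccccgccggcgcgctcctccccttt

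Between 149994700 and 258029564 fragments were counted on genes per library. Levels are given as CPM, the count scaled to a common library size with TMM factors, which compare 1 gene between libraries, or as TPM, which divides by transcript length and compares genes with each other. Libraries with the same replicate number resembled each other more than libraries of the same treatment. Over 6191 well-expressed genes, the deviations from the group means of equally numbered DMSO and S767 libraries had correlations of 0.779, 0.872 and 0.754, and all other pairings gave negative ones. Because deviations within a group sum to 0, the negative values follow in large part from the positive ones. Of the 12 myeloid markers examined, 8 exceeded 1 TPM in every library, and 12 of 12 differed between replicate numbers, against 28.7% of all genes tested. Their summed TPM was 1175 and 1178 in the DMSO and S767 libraries of replicate 1 and 762 to 791 in the other 4. *LYZ*, the lysozyme gene of mature myeloid cells, gave 597 and 596 TPM of the sum in replicate 1 and 244 to 264 TPM in the other 4. The summed level of 8 T and B lymphocyte markers was 6.97 to 11.6 TPM in DMSO and 7.0 to 11.5 TPM in S767, with *CD3E* at 0 in every library. That of 6 erythroid and platelet markers was 0.56 to 0.90 TPM and 0.64 to 0.92 TPM, with *HBA1*, *GP1BA* and *PF4* at 0. That of 6 stromal and epithelial markers was 2.38 to 3.44 TPM and 2.56 to 3.52 TPM. Only 1 lymphocyte marker, *CD79A* (6.63 to 11.18 TPM), and 1 stromal and epithelial marker, *PECAM1* (2.13 to 3.37 TPM), exceeded 1 TPM in every library. They made up most of their sums and were named after their values were seen.

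None of the 10 genes passed the test between S767 and DMSO. By edgeR's quasi-likelihood test, 0 of 10 had an unadjusted *P* under 0.05, against 3.53% of all genes tested, and the adjusted *P* was 1.00 for each, where 0.00483% of all genes (1 gene) passed an adjusted *P* of 0.05. DMSO and S767 libraries did not overlap in CPM for 0 of 10, which is near the 9.21% of all genes without overlap. As a median over the set, the log2 fold change was -0.00, as it was over all genes tested. With the replicate number as a block in the fit, 1 of 10 had an unadjusted *P* under 0.05, *PIM1*, against 16.8% of all genes, and 0 of 10 passed an adjusted *P* of 0.05, against 3.23%. In bulk RNA a lower level in all cells and a smaller share of expressing cells cannot be told apart, and this holds for each value that follows.

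**Figure D1:**
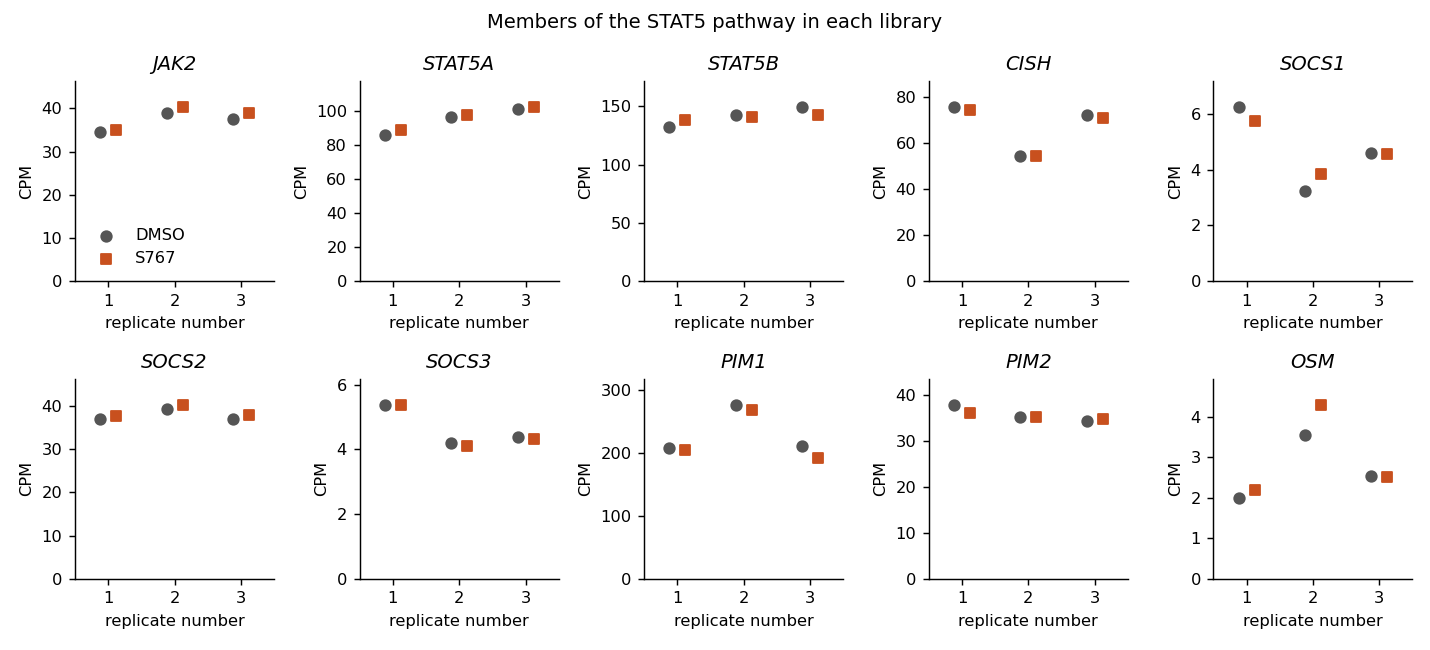
CPM (TMM-scaled counts, y axis, from 0) of the 10 genes in each library by replicate number (x axis), with DMSO as circles and S767 as squares. Both libraries of a replicate number lie close together, and in none of the genes are the S767 libraries all above or all below the DMSO libraries.

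*JAK2*, the kinase (chr9:4984390-5128183, plus strand, GRCh38), had 34.5, 38.9 and 37.5 CPM in DMSO libraries 1 to 3 and 35.1, 40.3 and 38.9 CPM in S767 libraries 1 to 3. The S767 library was the higher of every pair, by no more than 0.05 on the log2 scale, and the groups overlapped. The log2 fold change was 0.04 ± 0.07 (SE), with a 95% interval of -0.11 to 0.19 that narrowed to -0.02 to 0.10 with the replicate block. All 3 pairs lay higher in S767 for 19.9% of all genes. The span of *JAK2* holds *INSL6* on the opposite strand and several pseudogenes.

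*STAT5A* and *STAT5B* lie next to each other on chromosome 17 (chr17:42287547-42311943, plus strand, and chr17:42199168-42276707, minus strand) and encode nearly identical proteins. *STAT5A* had 85.8, 96.3 and 101.3 CPM in DMSO and 88.9, 97.5 and 102.2 CPM in S767. The S767 library was the higher of every *STAT5A* pair, by 0.05, 0.02 and 0.01 on the log2 scale, an order that 19.9% of all genes had. The log2 fold change of *STAT5A* was 0.03 ± 0.07 (SE), with an interval of -0.02 to 0.08 in the fit with the block. *STAT5B* had 132.5, 142.4 and 149.4 CPM in DMSO and 138.2, 141.0 and 142.3 CPM in S767. The S767 library was the higher of the first *STAT5B* pair and the lower of the other 2, and the log2 fold change was -0.01 ± 0.05 (SE), or -0.07 to 0.05 as the interval with the block. Per transcript length, *STAT5A* stood at 0.816 to 0.925 of *STAT5B* in TPM, below it in each of the 6 libraries. Because fragments shared by the paralogs can be split differently by each counting method, the ratio is uncertain. RSEM, which divides such fragments, gave 1.01 to 1.03 times the unique counts for *STAT5A* and 0.999 to 1.01 times for *STAT5B*.

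Among the feedback inhibitors, *CISH* (chr3:50606490-50611831, minus strand) encodes an SH2-domain protein that binds phosphorylated cytokine receptors. Its level was 75.6, 54.1 and 72.3 CPM in DMSO and 74.1, 54.3 and 70.7 CPM in S767. Both libraries of replicate 2 were the low ones, and the DMSO and S767 libraries of a pair differed by 0.03 or less on the log2 scale. The log2 fold change was -0.02 ± 0.14 (SE) without the block and -0.02 ± 0.02 with it, and the interval narrowed from -0.35 to 0.30 to -0.07 to 0.03. The gene overlaps *MAPKAPK3* on the opposite strand by 312 bases, and counts that ignored strand were 0.902 to 0.917 times the stranded counts.

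*SOCS1*, an inhibitor that binds JAK kinases directly (chr16:11254405-11256200, minus strand), had 6.25, 3.24 and 4.61 CPM in DMSO and 5.76, 3.85 and 4.58 CPM in S767. S767 was lower in 2 pairs and higher, by 0.25 on the log2 scale, in the pair of replicate 2. The log2 fold change was 0.01 ± 0.23 (SE), and the block narrowed the interval from -0.52 to 0.54 to -0.13 to 0.18. *SOCS1* lies inside the span of *RMI2*, which is on the opposite strand.

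*SOCS2* (chr12:93569814-93583487, plus strand) encodes a regulator best known for limiting growth hormone receptor signaling. Values of 36.8, 39.4 and 36.8 CPM in DMSO faced 37.7, 40.2 and 37.8 CPM in S767. The S767 library was higher by 0.03 to 0.04 on the log2 scale in each pair, and the groups overlapped. The log2 fold change was 0.03 ± 0.05 (SE), with a blocked interval of -0.02 to 0.09 and an adjusted *P* of 0.577 by edgeR with the block. In RSEM's TPM the means lay in the other order, 29.98 ± 1.03 in DMSO and 29.5 ± 0.857 in S767 (SD, 3 libraries each). RSEM counts in the fit with the block gave a log2 fold change of 0.04, in the direction of the unique counts. The antisense gene *SOCS2-AS1* overlaps 1955 bases of *SOCS2*.

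*SOCS3*, which inhibits JAK kinases at receptors of the interleukin-6 family (chr17:78356778-78360077, minus strand), had 5.38, 4.18 and 4.37 CPM in DMSO and 5.37, 4.11 and 4.31 CPM in S767. Each S767 library was the lower of its pair, by 0.03 or less on the log2 scale, an order that 17.8% of all genes had. Its log2 fold change was -0.01 ± 0.14 (SE), and the interval with the block was -0.15 to 0.11. *CISH* thus had the narrowest blocked interval of the 4 feedback genes, and *SOCS1*, with 481 to 1373 counts per library, the widest.

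*PIM1* (chr6:37170203-37175426, plus strand) had 207.2, 276.2 and 210.4 CPM in DMSO and 204.4, 267.3 and 191.2 CPM in S767. S767 was the lower of every pair, by 0.02, 0.05 and 0.14 on the log2 scale for replicates 1 to 3, while both libraries of replicate 2 were above the other 4. The log2 fold change was -0.07 ± 0.14 (SE), with an interval of -0.39 to 0.26. With the replicate block it was -0.07 ± 0.03, with an interval of -0.13 to -0.01, an unadjusted *P* of 0.0228 and an adjusted *P* of 0.203 by edgeR. Lower values at an unadjusted *P* under 0.05 were found for 7.39% of all genes in that fit. The blocked log2 fold change was -0.09 without the pair of replicate 1, -0.08 without that of replicate 2 and -0.035 without that of replicate 3, with adjusted *P* values of 0.00595, 0.597 and 0.749 by edgeR. The first of these fits passed *PIM1* along with 2034 genes in all.

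*PIM2* (chrX:48913182-48919024, minus strand) had 37.9, 35.2 and 34.4 CPM in DMSO and 36.1, 35.3 and 34.7 CPM in S767. The S767 library was the lower of the first pair and marginally the higher of the other 2, and the log2 fold change was -0.02 ± 0.05 (SE) with a blocked interval of -0.08 to 0.04.

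*OSM*, the secreted cytokine of the set (chr22:30262829-30266840, minus strand), had 2.00, 3.57 and 2.54 CPM in DMSO and 2.19, 4.30 and 2.52 CPM in S767. Its counts were among the lowest of the 10 genes, with 436 to 770 per library. S767 was higher by 0.13 and 0.27 on the log2 scale in the first 2 pairs and lower by 0.01 in the third. The log2 fold change of 0.16 ± 0.28 (SE) was the largest in size of the 10, with an interval of -0.49 to 0.80, or -0.04 to 0.30 with the block (adjusted *P* = 0.447 by edgeR with the block). Without the pair of replicate 3 the blocked log2 fold change of *OSM* was 0.20. Its adjusted *P* there was 0.336 by edgeR, and its unadjusted *P* was under 0.05, as for 2791 genes in all. The level in replicate 2 was the highest of either treatment.

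For each gene an exact two-sided permutation test of log2 CPM was also run, and its *p* lay between 0.5 and 1.0 for the 10 genes, where 3 libraries against 3 allow none below 0.1. A *P* above the limit does not show that the levels were equal. The blocked 95% intervals bound the change at these depths, and for *JAK2*, *STAT5A*, *STAT5B*, *CISH*, *SOCS2* and *PIM2* they lay within -0.08 and 0.10 on the log2 scale. Wider intervals remained for *SOCS1*, *SOCS3* and *OSM*, of which *OSM* reached 0.30 at its upper end. That of *PIM1*, at -0.13 to -0.01, was not wider than these 6 but lay below 0.

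**Figure D2:**
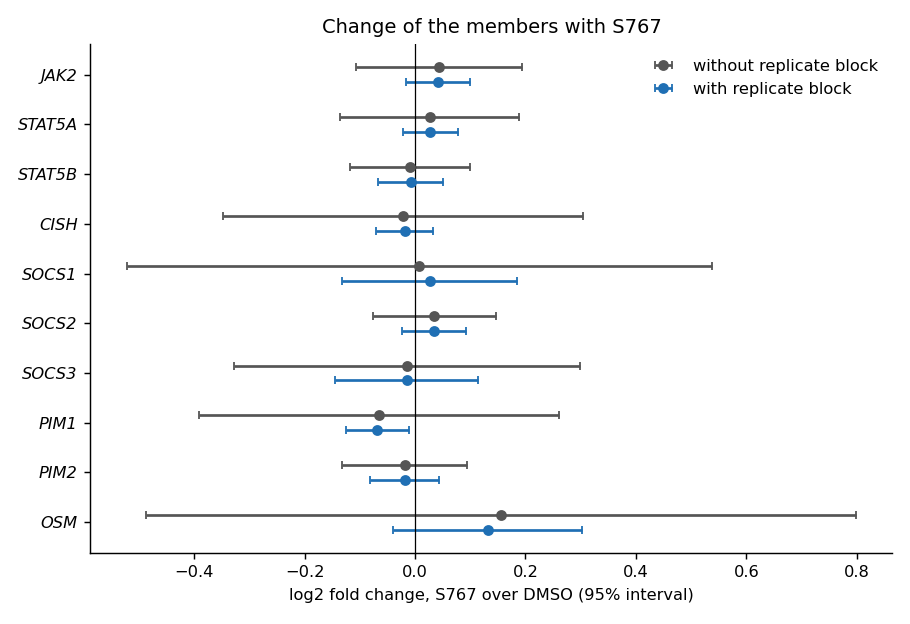
Log2 fold change of S767 over DMSO (x axis) for the 10 genes (rows), with points as the fitted values and bars as 95% intervals, without the replicate block in gray and with it in blue. Every gray bar crosses 0, and with the block only the bar of *PIM1*, at -0.13 to -0.01, does not.

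In TPM, *PIM1* had the highest level of the 10 genes, with a mean of 109.6 over the 6 libraries and a range of 90.9 to 135.1. *STAT5B* followed at 43.5 (41.3 to 47.0), *CISH* at 39.5 (32.2 to 44.0) and *STAT5A* at 38.1 (34.4 to 39.9). The ranges of *STAT5B* and *CISH* overlapped, as did those of *CISH* and *STAT5A*. Then came *SOCS2* at 29.8 (28.6 to 31.2), *PIM2* at 24.7 (23.7 to 26.7), *JAK2* at 9.26 (8.76 to 9.59) and *SOCS1* at 5.51 (3.72 to 7.33). *SOCS3* at 2.31 (1.98 to 2.74) and *OSM* at 2.14 (1.54 to 3.34) were lowest and overlapped. The 10 genes summed to 286 to 324 TPM per library. The pair of feedback genes *CISH* and *SOCS2* stood above *SOCS1* and *SOCS3* in each library.

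Replicate number, with 2 degrees of freedom, held 72.8 to 99.7% of the sum of squares of log2 CPM in each of the 10 genes, and treatment, with 1, held 0.202 to 13.2%. In the fit with treatment and replicate number, 7 of 10 genes differed between replicate numbers at an adjusted *P* under 0.05, against 28.7% of all genes tested. These were *JAK2*, *STAT5A*, *CISH*, *SOCS1*, *SOCS3*, *PIM1* and *OSM*, and the smallest adjusted *P* values were 8.64e-07 for *CISH* and 1.65e-06 for *PIM1* (edgeR). The values for *STAT5B*, *SOCS2* and *PIM2* were 0.0648, 0.0628 and 0.109. The 28.7%, used for the markers and lists as well, covers tested genes of all levels. A share among genes of like counts was not computed. Between the highest and lowest replicate number, mean log2 CPM spanned 0.90 for *OSM*, 0.76 for *SOCS1*, 0.47 for *CISH*, 0.44 for *PIM1* and 0.37 for *SOCS3*, and 0.22 or less for the other 5.

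The genes did not move in 1 direction between replicates. *CISH*, *SOCS1* and *SOCS3* had both libraries of replicate 2 below the other 4, as 15.7% of all genes did. By contrast *JAK2*, *SOCS2*, *PIM1* and *OSM* had both above, as 13.8% of all genes did. *CISH* was 0.29 below its mean of the 6 libraries on the log2 scale in both replicate 2 libraries, where *PIM1* was 0.30 and 0.26 above its own. Both libraries of replicate 1 were above the other 4 for *CISH*, *SOCS1*, *SOCS3* and *PIM2* and below them for *STAT5A*, *STAT5B*, *JAK2* and *OSM*. The share of all genes with either order was not computed for replicate 1, so whether these orders were unusual is not known. In the same libraries *LYZ* stood at 619.7 and 606.6 CPM in replicate 1 and 253.2 to 287.1 CPM in the others, and *CD34*, a marker of progenitors, at 1.57 and 1.51 CPM in replicate 1 and 2.52 to 6.26 CPM in the others. Among the other myeloid markers, *MPO*, an early granule gene, was highest in replicate 1 (61.8 and 56.8 CPM, against 30.1 to 40.7 in the others) and *ITGAM*, a gene of mature cells, in replicate 3 (17.9 and 13.7 CPM, against 9.25 to 11.3). These 4 markers were singled out after their values were seen, and their part in the spread of the 10 genes was not tested. The labels do not say what the numbers share.

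**Figure D3:**
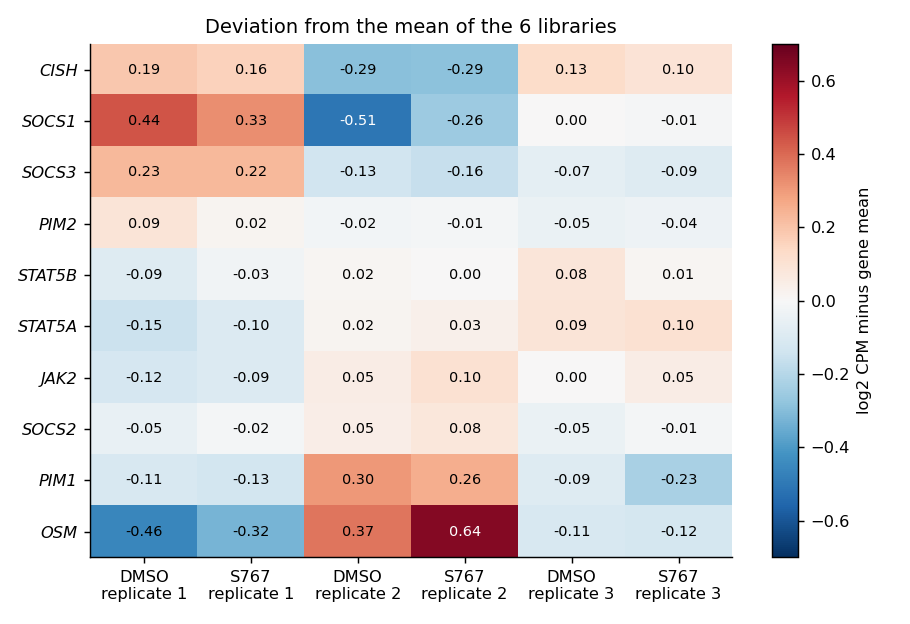
Log2 CPM of each gene (rows) in each library (columns, ordered by replicate number) minus that gene's mean over the 6 libraries, written in each cell and colored from blue (below) to red (above). The columns of replicate 2 are blue for *CISH*, at -0.29 in both, and red for *PIM1*, at 0.30 and 0.26.

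For *CISH*, *PIM1* and *SOCS2*, the genes with the closest course over the 6 libraries were sought among 12785 genes with a mean of at least 1 CPM, by the root mean square difference of centered log2 CPM. For *CISH* these were *TAF1A* (0.0127), *ISL2* (0.0257) and *JUNB* (0.0267), where the root mean square of *CISH* itself was 0.206. *JUNB*, an immediate early transcription factor, had 94.95, 69.95 and 88.2 CPM in DMSO and 93.2, 68.9 and 87.4 CPM in S767. For *PIM1* (0.203) they were *ZNF350* (0.0268), *ZC3HAV1* (0.0271) and *HIC1* (0.0318). The nearest to *SOCS2* (0.0471) were *FTO* (0.0040), *IRAK1* (0.0063) and *TTC27* (0.0070).

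The genes around the pathway were described from 5 further lists. Receptor chains, JAK kinases and STATs other than the members numbered 12, of which 9 were tested. The median log2 fold change of these 9 was 0.10 against -0.00 over all genes, and 1 of 9 had higher values at an unadjusted *P* under 0.05, against 2.03% of all genes, with 0 of 9 lower. With the replicate block, 2 of 9 rose at an adjusted *P* under 0.05, against 2.16% of all genes. One was the JAK family kinase *TYK2*, with 166.3, 157.0 and 158.3 CPM in DMSO and 183.0, 173.4 and 171.9 CPM in S767. Its groups did not overlap, and the blocked log2 fold change was 0.13 (0.08 to 0.18, adjusted *P* = 0.00853 by edgeR). The other was *STAT2*, a mediator of interferon signaling, with 29.2, 26.9 and 25.5 CPM in DMSO and 32.1, 29.1 and 28.3 CPM in S767. The blocked change of *STAT2* was 0.13 (0.07 to 0.20, adjusted *P* = 0.0264 by edgeR). Neither passed after adjustment without the block, and without the pair of replicate 2 neither passed with it (adjusted *P* = 0.316 for *TYK2* and 0.332 for *STAT2* by edgeR). *STAT2* also missed the limit with RSEM counts (0.0504) and without the pair of replicate 3 (0.0752). Leaving out DMSO replicate 1 or 3 raised the count at an unadjusted *P* under 0.05 without the block to 3 and 2, and without DMSO replicate 2 the median was 0.04.

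The common beta chain of the GM-CSF receptor, *CSF2RB*, had 44.7, 42.8 and 45.8 CPM in DMSO and 49.1, 45.1 and 44.7 CPM in S767, which overlapped. It is given here with its values known because it carries JAK2. The alpha chains *CSF2RA* and *IL3RA* lie in the part shared by the X and Y chromosomes and are listed under 2 identifiers each. Both had 0 unique counts in every library and were not tested, whereas RSEM gave them 5.80 to 7.78 and 13.1 to 14.7 TPM. Their 0 counts cannot be read as absence of the transcripts.

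Among 16 further inhibitors of JAK-STAT signaling, which include the remaining *SOCS* genes, phosphatases such as *PTPN6* and the *PIAS* genes, all 16 were tested. In neither fit did any have an unadjusted *P* under 0.05 (0 of 16 by edgeR, with and without the block), against 3.53% and 16.8% of all genes, and their median log2 fold change was -0.00. Replicate number was called for 7 of 16, against 28.7% of all genes, and for 4 of 9 of the receptor chains, JAK kinases and STATs. In the lists that follow, it was called for 11 of 14 other STAT5-regulated genes and 2 of 9 cytokine ligands and receptors. It was also called for 14 of 19 genes of the ERK list.

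Another 14 genes known to respond to STAT5 include survival genes, cyclins and *MYC*, and all 14 were tested. Their median log2 fold change was -0.04, and 0 of 14 had an unadjusted *P* under 0.05 by edgeR without the block. With the block, 7 were lower and 1 higher at an unadjusted *P* under 0.05, against 7.39% and 9.38% of all genes. Of these, 2 fell and 1 rose at an adjusted *P* under 0.05, against 1.08% and 2.16%. *PIM3*, the third PIM kinase, fell from 78.6, 75.6 and 70.3 CPM in DMSO to 73.2, 66.3 and 65.3 CPM in S767, a blocked log2 fold change of -0.13 (-0.19 to -0.08, adjusted *P* = 0.0187 by edgeR). *BCL6*, a transcriptional repressor that STAT5 is known to hold down, had 13.9, 18.5 and 17.4 CPM in DMSO and 13.5, 15.6 and 13.9 CPM in S767, or -0.21 (-0.31 to -0.10, adjusted *P* = 0.0381). *IRF1*, a transcription factor of the interferon response, had 39.6, 58.1 and 45.3 CPM in DMSO and 42.1, 67.6 and 52.2 CPM in S767, or 0.17 (0.11 to 0.24, adjusted *P* = 0.0105). The groups overlapped for all 3 genes, and S767 lay on the same side of DMSO in each pair. Without the pair of replicate 2 none of the 3 passed with the block (adjusted *P* = 0.42 for *PIM3*, 0.442 for *BCL6* and 0.352 for *IRF1* by edgeR), and *BCL6* did not pass without the pair of replicate 3 (0.0796) or with RSEM counts (0.0827). Leaving out 1 library without the block gave 0 to 2 genes at an unadjusted *P* under 0.05, and the median was -0.01 without S767 replicate 1.

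The list of cytokine ligands and of receptors for oncostatin M and other cytokines held 17 genes, of which 9 were tested. With the block 1 of 9, the receptor gene *IL6R*, was higher at an unadjusted *P* under 0.05, against 9.38% of all genes. In the same fit 0 of 9 passed the adjusted test (edgeR), against 3.23% of all genes. Without the block, 0 of 9 had an unadjusted *P* under 0.05, and the median log2 fold change was -0.07, or -0.0017 without DMSO replicate 1. The ligands *CSF2*, *IL3* and *THPO* were listed at 0 TPM in every library. *CSF2* encodes GM-CSF itself. These 3 and *IL6R* were named after their values were seen.

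A last list of 20 genes, feedback and immediate early genes of the ERK pathway, which GM-CSF also stimulates, had 19 genes tested, with -0.12 as their median log2 fold change. Without the block 4 of 19 were lower at an unadjusted *P* under 0.05, against 1.51% of all genes, with 0 of 19 higher. The same number fell at an adjusted *P* under 0.05 with the block, against 1.08% of all genes. They were the early growth response factors *EGR1*, *EGR2* and *EGR3*, and *IER2*. Without the block the count was 1 without DMSO replicate 3 and 2 without DMSO replicate 2 or S767 replicate 3, as it was in limma-voom. The median was -0.07 without DMSO replicate 3 and -0.18 without DMSO replicate 2, and with the block it was -0.04 without the pair of replicate 3 and -0.18 without that of replicate 1.

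*EGR1* had 5.19, 14.4 and 11.3 CPM in DMSO and 4.95, 5.09 and 3.99 CPM in S767, and its groups did not overlap. The blocked log2 fold change was -1.03 (-1.46 to -0.60, adjusted *P* = 0.0161 by edgeR). In the pair of replicate 1 the libraries were nearly equal, and the difference lay in the other 2 pairs. *EGR2* had 32, 327 and 304 counts in DMSO and 54, 78 and 53 counts in S767, with a blocked change of -1.64 (-2.40 to -0.87, adjusted *P* = 0.0279). *EGR3* had 20, 63 and 200 counts in DMSO and 25, 12 and 24 in S767, with a blocked change of -1.90 (-2.78 to -1.02, adjusted *P* = 0.0271). In replicate 1 both were higher in S767, at 0.227 against 0.146 CPM for *EGR2* and 0.105 against 0.0916 CPM for *EGR3*. *IER2* had 103.8, 121.4 and 117.4 CPM in DMSO and 97.9, 108.0 and 102.7 CPM in S767, a blocked change of -0.15 (-0.21 to -0.09, adjusted *P* = 0.0106). Without the pair of replicate 2 the adjusted *P* with the block was 0.385 for *EGR1*, 0.549 for *EGR2*, 0.386 for *EGR3* and 0.311 for *IER2*. With RSEM counts and the block *IER2* alone of the 4 passed, and in DESeq2 with the block *IER2* passed, *EGR1* did not, and *EGR2* and *EGR3* were given no adjusted *P*.

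**Figure D4:**
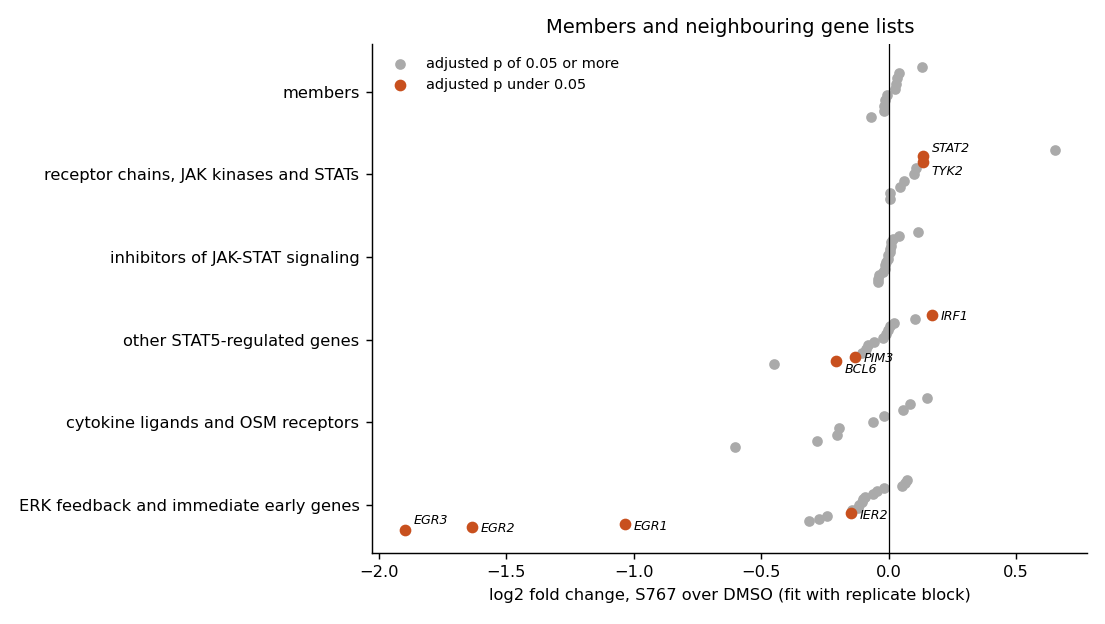
Log2 fold change of S767 over DMSO in the fit with the replicate block (x axis) for every tested gene of the 10-gene set and the 5 further lists (rows; points are spread vertically in order of value), with genes past an adjusted *P* of 0.05 in orange and named. The 10 members lie close to 0 with no gene in orange, and *EGR1*, *EGR2* and *EGR3* lie farthest to the left.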

How the data were processed

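Stranded poly(A) RNA-seq of OCI-AML5 cells gave 3 DMSO and 3 S767 libraries, and groups and replicate numbers were taken from the labels. The methods state that cells were treated in triplicate, without saying how separate the cultures were, so *P* values measure the spread between these libraries, which may be technical. The authors deposited whole-number counts of fragments per gene from STAR 2.7.1a, without normalization, and RSEM 1.2.28 tables with expected counts and TPM, on GRCh38 per the submitters' processing notes. Per the methods, reads were trimmed with Trimmomatic. The annotation release is not given in the sources used here, and positions are those of GENCODE 29, where all 10 identifiers were found, 7 in the same version. Counting uses unique fragments, so genes with near-identical copies lose counts.

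Reverse-strand counts were used, since the forward strand held 6.44 to 6.58% of the counts. The 4 lines that name no gene (19.7 to 20.7% of fragments) were left out. Genes were kept with filterByExpr (minimum count 10), scaled by TMM and tested with edgeR 4.0.16 in R 4.3.3 (quasi-likelihood, Benjamini-Hochberg adjustment over 20725 genes) without a block. Intervals are 95% and derive from the fitted standard errors, and log2 CPM used a prior count of 2. The fits were tested on simulated data. No library repeated another (chi-square per gene 15.2 to 64.3 between libraries). With such totals, counting error matters only for the lowest genes.

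The replicate numbers paired the libraries, by the correlations of their deviations from the group means (0.779, 0.872 and 0.754 for equal numbers). The pairing comes from these values and neither the labels nor the methods state it. Values with the replicate block are therefore given beside those without. Alternatives were limma-voom (limma 3.58.1), DESeq2 1.42.0, other scaling, filters and counts, log2(TPM + 1) and log2(TPM + 0.1), the block in several forms, and leaving out each library. The 10 genes and all lists were chosen with earlier results of these data known. Named beside the 10 are list genes with *P* under 0.05, or adjusted *P* under 0.05 with the block (at most 6 a list), and the 3 genes nearest in course to each of *CISH*, *SOCS2*, *PIM1* and *OSM*. The last of these is not reported here. The text marks any other gene it names.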

Additional observations from a re-analysis of the deposited data

How the results depend on the processing

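Over the 24 alternatives per gene, 214 of the 240 values of the 10 genes kept their direction and their side of the adjusted limit, 25 changed sign and 1 passed the limit. The cause of the sign changes was not tested, and they include *OSM* and *PIM1*, the genes with the largest values in size. In *SOCS1* the log2 fold change was -0.0026 with the block in limma-voom and -0.067 with the replicate block without replicate 2, in *STAT5B* it was 0.022 with the block without replicate 3, in *PIM2* 0.0077 with the block without replicate 1, and in *SOCS2* -0.020 with log2(TPM + 1) and -0.021 with log2(TPM + 0.1). Leaving out 1 library at a time without the block gave -0.0036 to 0.099 for *JAK2*, -0.038 to 0.081 for *STAT5A*, -0.054 to 0.032 for *STAT5B*, -0.15 to 0.10 for *CISH*, -0.20 to 0.27 for *SOCS1*, 0.0036 to 0.067 for *SOCS2*, -0.14 to 0.10 for *SOCS3*, -0.22 to 0.082 for *PIM1*, -0.047 to 0.024 for *PIM2*, -0.19 to 0.40 for *OSM* and -0.015 to 0.34 for *IRF1*. *PIM1* passed the adjusted limit only with the block without replicate 1 (-0.093), where 1 of the 10 genes was called. At an unadjusted *P* under 0.05, 1 of the 10 was called in every blocked fit but that without replicate 2, where 0 were. The gene called was *PIM1*, except without replicate 3, where it was *OSM* and not *PIM1*. By edgeR, 0 of the 10 were called without the block or when any library was left out. The number of all genes with an unadjusted *P* under 0.05, 732 without the block, was 3475 with it, 3428 with the block in limma-voom, 2109 in DESeq2, 3322 with RSEM counts and 3454 with library size alone. With the block and without replicate 1, 2 or 3 it was 4362, 1895 and 2791, and leaving out 1 library without the block gave 534 to 1033. Past an adjusted *P* of 0.05 there was 1 gene, against 25 in DESeq2, 9 with no filter, 0 with either TPM scale by limma and 1 to 2 when 1 library was left out. With the block there were 670, then 609 in limma-voom, 630 in DESeq2, 394 with RSEM counts, 617 with library size alone, and 2034, 24 and 636 without replicate 1, 2 or 3. The replicate number was called for 5944 genes, 5835 in limma-voom and 5317 with RSEM counts, and for 7 of the 10 genes in each. Of the 216 values of the 9 named list genes, 53 passed the adjusted limit, and all 53 were among the 72 with the block. None of the 9 passed with the block without replicate 2. With RSEM counts and the block, adjusted *P* was 0.0538 for *EGR1*, 0.107 for *EGR2*, 0.0653 for *EGR3*, 0.0504 for *STAT2* and 0.0827 for *BCL6*. With DESeq2 and the block it was 0.192 for *EGR1* and not given for *EGR2* and *EGR3*. With 3 pairs, changes smaller than the blocked intervals could not be resolved, and counts as low as 12 in a library limit the precision of *EGR3*.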
